A study of Rattus norvegicus with 32 samples.

Results

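Transcript levels of 10 genes of bone morphogenetic protein (BMP) signalling, Bmp3 with Bmp2, Bmp4, Bmp6, Bmp7, Bmpr1a, Bmpr2, Smad1, Id3 and Nog, were examined in the hippocampus of adult rats. Each gene was a single row, found by its symbol, among the 32883 rows of each of 2 raw count tables. The genes were chosen from these same data: Bmp3 was selected on its higher counts in male ISch than male IS rats and Bmp4 on its lower counts in male FIDch than male IS rats. The other 8 are a part of the pathway around them, and were also chosen with earlier results of these data known. For these reasons no p-value is given for any of the 10 genes in male ISch or male FIDch against male IS, and counts of them at a threshold in these contrasts only describe the selection.

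Hippocampal RNA came from 32 Sprague-Dawley rats at postnatal day 65 (P65), with 4 rats in each of 8 groups of sex and early diet. All rats, controls included, were adults on sufficient iron when the tissue was taken. The IS control group had mothers with sufficient iron and no added choline, and the ISch group had mothers with sufficient iron and extra choline. The FID group was formerly iron-deficient, from mothers given an iron-poor diet in pregnancy and early lactation, and the FIDch group was formerly iron-deficient with prenatal choline (the labels name these last diets ID and IDch). Choline is a source of methyl groups and a membrane precursor, and was given to the dam and not to the offspring. The paper states 1 male rat per litter in each experiment but took its RNA data from an earlier study, so the litters of the male RNA libraries are uncertain. For the females the labels speak of biological replicates without naming litters. The p-values therefore measure the spread between these rats. Males were sequenced as batch I and females as batch II, with a different RNA isolation kit for each sex, so that sex and batch cannot be told apart and levels are compared within a sex only.

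BMP ligands are secreted growth factors of the TGF-β family that bring together type I and type II receptor kinases at the cell surface. The activated type I receptor phosphorylates SMAD1, SMAD5 and SMAD9, which enter the nucleus with SMAD4 and turn on targets such as the Id genes, and extracellular antagonists such as noggin bind the ligands and keep them from the receptor. In the adult hippocampus BMP signalling is best known for restraining the division of neural stem cells in the dentate gyrus, whereas BMP3 is an atypical member that can act against other BMPs, and BMP6 is known from the liver as the iron-regulated inducer of hepcidin.

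Upstream sequence from RefSeq (assembly GRCr8, not the build of the counts) was at hand for 8 of the 10 genes, all but Bmp2 and Bmp7. The 250 bases before the annotated start are shown for Bmp3, around which the set was built, and for Id3 and Bmpr1a, which differed between diets in the fits below. Capitals mark the letters TATAA on either strand, the core of a TATA box, and hits on both strands can overlap.
Bmp3, chr14:11041283-11041532, minus strand: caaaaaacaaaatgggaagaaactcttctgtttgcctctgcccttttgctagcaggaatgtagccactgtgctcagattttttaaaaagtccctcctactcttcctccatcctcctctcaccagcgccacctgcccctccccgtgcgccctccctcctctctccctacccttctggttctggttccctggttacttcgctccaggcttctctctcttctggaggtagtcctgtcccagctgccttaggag
Id3, chr5:153656041-153656290, plus strand: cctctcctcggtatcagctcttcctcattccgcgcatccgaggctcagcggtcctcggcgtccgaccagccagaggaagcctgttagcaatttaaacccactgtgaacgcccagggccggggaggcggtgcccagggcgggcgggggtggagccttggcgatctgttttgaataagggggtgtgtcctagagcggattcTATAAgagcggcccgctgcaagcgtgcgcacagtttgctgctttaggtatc
Bmpr1a, chr16:9786862-9787111, minus strand: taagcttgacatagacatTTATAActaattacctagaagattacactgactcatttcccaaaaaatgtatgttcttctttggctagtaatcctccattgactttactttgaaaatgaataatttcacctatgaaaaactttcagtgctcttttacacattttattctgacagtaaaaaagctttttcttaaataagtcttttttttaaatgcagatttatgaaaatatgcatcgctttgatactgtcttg
The Id3 window held TATAA once, beginning 51 bases before the start, and the Bmpr1a window held it on both strands as overlapping hits that began 232 and 231 bases before the start. No TATAA lay in the Bmp3 window. A window of this length holds these letters in 24.0% of 33469 promoters. Their G and C content was 53.6% for Bmp3, 61.2% for Id3 and 28.4% for Bmpr1a. Neither CAGAC, the core of a SMAD-binding element, nor the GC-rich SMAD motif GGCGCC was found on either strand of these 3 windows. Over all promoters CAGAC was present in 42.9% and GGCGCC in 8.69%. Among the other 5 genes CAGAC occurred in Bmp4, 200 and 35 bases before the start, and in Nog 198 bases before it, and GGCGCC occurred in Nog 51 bases before it. These matches describe letters only.

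Male libraries held 3515806 to 9517503 counts and female libraries 18439999 to 26616318, with 3515806 in FIDch replicate 2 of the males. Levels are given as CPM, counts scaled to library size after TMM normalization over the 16 libraries of a sex. A count of 0, with an upper limit of 3 counts at 95% confidence, would allow 0.313 to 0.847 CPM in a male and 0.113 to 0.163 CPM in a female library, for counting error only. Fold changes were tested by the quasi-likelihood method of edgeR, each p being adjusted by Benjamini-Hochberg over all genes of the fit. A gene is called, or meets the criterion that the study used, when its log2 fold change exceeds 0.2 in either direction and its unadjusted p is under 0.05. Hippocampal marker genes (Prox1, Wfs1, Zbtb20 and others) summed to 1000 CPM or more in every library, and none of the 10 was at 0 throughout. Choroid plexus markers stood apart in 1 library, male FID replicate 4, with a sum of 407 CPM against 3.27 to 20.3 CPM in the other 31 libraries, and Otx2 of that list was at 0 in all. Because this is bulk tissue, fewer cells of a type and less RNA per cell cannot be told apart.

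Bmp3 (ENSRNOG00000002381), the ligand around which the set was built, was higher in male ISch than in male IS rats. Its level was 16.2, 17.4, 22.1 and 24.6 CPM in the 4 male IS rats and 38.0, 31.6, 44.0 and 42.4 CPM in the 4 ISch rats. All ISch rats lay above all IS rats, and the means of 39.0 ± 5.56 and 20.1 ± 3.95 CPM (SD, n = 4 each) gave a ratio of 1.94. This is the difference that chose the gene, with a fitted log2 fold change of 0.96 (SE 0.14), and it is described only. Without ISch replicates 1 and 2, whose names share a stem and have another form than those of most male libraries, the log2 fold change was 1.10.

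The male FID rats had 19.8, 28.9, 47.3 and 28.2 CPM of Bmp3, a spread in which replicate 1 overlapped the IS rats and replicate 3 was the highest male library. The mean was 31.1 ± 11.6 CPM (SD, n = 4), and Bmp3 rose at the criterion. Its log2 fold change against IS was 0.63 (SE 0.22, adjusted p = 0.786 by edgeR). The call did not hold without FID replicate 3, where the log2 fold change was 0.36, and the IS rats are those of the contrast that chose Bmp3. In male FIDch rats Bmp3 stood at 16.8, 31.3, 19.7 and 18.4 CPM, with replicate 2, the library of lowest depth, above the others. These rats overlapped both IS and FID. Against FID, Bmp3 fell by 0.60 on the log2 scale (SE 0.24, adjusted p = 0.210 by edgeR). This call was lost without FID replicate 3 (log2 fold change -0.33), without FIDch replicates 1, 3 or 4, each in turn, and with DESeq2. Against IS the FIDch log2 fold change was 0.06 (SE 0.19).

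In the female rats Bmp3 was not called in any comparison. The IS rats had 20.2, 34.9, 37.7 and 33.1 CPM and the ISch rats 34.8, 23.5, 18.3 and 15.9 CPM, so that 3 of 4 ISch rats lay below 3 of 4 IS rats. The log2 fold change was -0.45 (SE 0.24, adjusted p = 0.384 by edgeR), opposite in sign to the value in the males. Bmp3 met the criterion as lower in ISch without IS replicate 1 (-0.60) or without ISch replicate 1 (-0.72), so that these 2 rats decided whether it was called. The difference between the sexes in this comparison was not tested, because the male values chose the gene. The female FID rats had 41.8, 35.4, 34.8 and 34.8 CPM and the FIDch rats 31.0, 36.9, 38.5 and 23.6 CPM. Their log2 fold changes against IS were 0.22 (SE 0.14) for FID and 0.04 (SE 0.19) for FIDch, and FIDch against FID gave -0.18 (SE 0.13). By mean level the order was ISch, FID, FIDch, IS in males and FID, FIDch, IS, ISch in females, and neighbours in either order overlapped. The sexes did not differ at the criterion in FID against IS (female minus male log2 difference -0.43, SE 0.30, adjusted p = 0.698 by edgeR) or in FIDch against FID (0.40, SE 0.30, adjusted p = 0.496). The male IS rats in the first of these tests are those of the contrast that chose Bmp3.

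**Figure D1:**
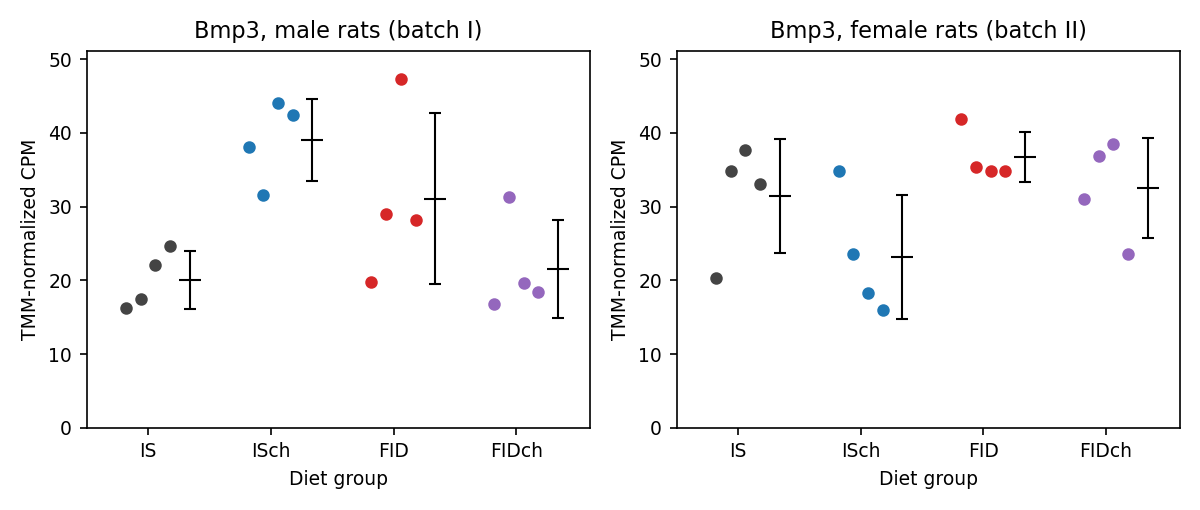
TMM-normalized CPM of Bmp3 in each library (points, replicates 1 to 4 from left to right) by diet group, with the group mean and SD (black), for male rats at left and female rats at right. The 4 male ISch rats lie between 31.6 and 44.0 CPM, above the male IS rats at 16.2 to 24.6 CPM, while the female ISch and IS rats overlap.

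Low female Bmp3 went with a high sum of the CA1 markers. The 5 female libraries with the highest sums of the 4 CA1 markers, 937 to 1122 CPM, were IS replicate 1, ISch replicates 2, 3 and 4 and FIDch replicate 4, and they had 15.9 to 23.6 CPM of Bmp3. The other 11 libraries had CA1 sums of 519 to 901 CPM and 31.0 to 41.8 CPM of Bmp3. Among the choline females this split also followed the numbers in the library names. ISch replicates 2, 3 and 4 and FIDch replicate 4 bear low numbers. ISch replicate 1 and FIDch replicates 1, 2 and 3 bear higher numbers, and had 31.0 to 38.5 CPM of Bmp3. What the numbers stand for is not stated, and IS replicate 1 had no choline. Wfs1, Mpped1 and Man1a1 made up nearly all of the sum, whereas Fibcd1 was at most 6.11 CPM. By mean, female ISch was above IS for Wfs1 (559 and 489 CPM) and Mpped1 (328 and 310 CPM). It was below IS for Man1a1 (59.2 and 61.4 CPM) and Fibcd1 (1.32 and 1.60 CPM), and 0 of the 3 CA1 markers tested were called there. The part of tissue makeup, or of whatever the name numbers reflect, in the female Bmp3 values was not tested. These 5 libraries held the 5 lowest female Bmp3 values, and leaving them out was an alternative chosen after seeing the data. It left a single ISch rat, assumed to vary like the IS rats, and a female ISch log2 fold change of -0.01 for Bmp3. Since every low Bmp3 value was taken out, this value was set by the choice of libraries and nothing is read from it. In that fit the log2 fold change was 0.79 for Bmp7 and 0.51 for Id3. With a single ISch rat these are sizes only, and whether either gene would still be called is not read from them. In the males the CA1 sum was 646 to 817 CPM, with 651 to 744 CPM in IS and 688 to 745 CPM in ISch.

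Of 12309 named genes with a mean of at least 1 CPM in both sexes, the 5 whose log2 level followed Bmp3 most closely in both were Slit2, Chrna7, Rasa1, Tcaf1 and Dgkb. For Slit2, an axon guidance ligand, Pearson's r with Bmp3 was 0.73 over the 16 male and 0.84 over the 16 female libraries. For Chrna7, the α7 nicotinic acetylcholine receptor subunit, r was 0.70 and 0.82. For the other 3 the smaller r of a pair was 0.68 to 0.69. Spearman's rho for Slit2 was 0.67 and 0.76, and without the 2 libraries farthest from the median of Bmp3 its r was 0.66 and 0.81. For Chrna7 rho was 0.84 and 0.56, and r without those 2 libraries was 0.64 and 0.72. The genes were picked for these values, which share libraries, depth and tissue makeup, and no p is given.

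Among the other ligands, Bmp7, which signals through BMP type I receptors, was called in 3 of the 4 female comparisons. Its level was 1.92, 1.47, 1.98 and 3.02 CPM in the female IS rats and 3.72, 4.46, 4.72 and 5.53 CPM in the ISch rats, with no overlap, on 38 to 72 and 76 to 112 counts per library. Bmp7 rose in ISch with a log2 fold change of 1.13 (SE 0.22, adjusted p = 0.0257 by edgeR). With each library left out in turn the log2 fold change was 0.99 to 1.37 and met the criterion, but the adjusted p was over 0.05 in 6 of these 8 fits, all except those without IS replicate 4 or ISch replicate 1. Female FID rats had 2.55, 2.82, 3.11 and 3.34 CPM and FIDch rats 3.57, 3.34, 3.01 and 3.98 CPM, both overlapping IS replicate 4. Bmp7 rose at the criterion in FID (log2 fold change 0.49, SE 0.21, adjusted p = 0.417 by edgeR) and in FIDch (0.73, SE 0.22, adjusted p = 0.186). The FID call was lost without IS replicates 1, 2 or 3 or FID replicates 2, 3 or 4, each in turn. The 3 calls share the 4 female IS rats, and the comparison without them, FIDch against FID, gave 0.23 (SE 0.15) and was not called.

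By the unadjusted criterion only, the choline difference of Bmp7 was smaller in formerly iron-deficient than in iron-sufficient females. The interaction was -0.90 on the log2 scale (SE 0.27, adjusted p = 0.356 by edgeR). Bmp7 was 1 of the 10 genes at the criterion for this interaction, near the share over all genes. Of all 14975 genes 7.33% were called and 0.00668% had an adjusted p under 0.05. In males Bmp7 lay between 1.57 and 4.23 CPM on 13 to 34 counts, and the 4 diet groups overlapped. Its male log2 fold changes were -0.10 (SE 0.27) in ISch, 0.20 (SE 0.24) in FID and 0.20 (SE 0.27) in FIDch against IS. The female minus male difference of Bmp7 was 0.27 (SE 0.33) in FID against IS and 0.22 (SE 0.32) in FIDch against FID, neither of them called.

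Bmp4, a main ligand of BMP type I receptors, was at 11.2, 9.06, 7.71 and 6.35 CPM in male IS rats and at 6.05, 9.03, 4.97 and 3.27 CPM in male FIDch rats. The groups overlapped, since FIDch replicate 2 lay within the IS range. The log2 fold change was -0.64 (SE 0.26), which is the difference that chose the gene, and was between -0.84 and -0.45 with each library left out. Male ISch rats had 8.57, 8.66, 3.75 and 4.38 CPM (log2 fold change -0.45, SE 0.27) and male FID rats 8.16, 4.20, 8.57 and 5.39 CPM (-0.41, SE 0.24, adjusted p = 0.786 by edgeR). The IS rats in both fits are those of the contrast that chose Bmp4. In females Bmp4 lay between 8.88 and 13.1 CPM in all 16 rats, and its log2 fold changes ran from -0.18 (SE 0.09) in FID against IS to 0.21 (SE 0.10) in FIDch against FID, none at the criterion.

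Bmp6 ranged from 7.19 to 11.04 CPM in males and from 6.001 to 10.1 CPM in females. Its group means were 8.92 to 9.70 CPM in males and 7.17 to 8.63 CPM in females, and no comparison called it, with log2 fold changes from -0.09 (SE 0.12, female FID against IS) to 0.22 (SE 0.14, female FIDch against FID). The IS and FID rats, which differ in early iron, had 8.92 ± 1.34 and 9.52 ± 1.42 CPM of Bmp6 in males and 7.60 ± 1.03 and 7.17 ± 0.838 CPM in females (SD, n = 4 each). Bmp2 was close to the limit of detection, with 3 to 16 counts in males, where it did not pass the expression filter, and 7 to 31 counts in females. Female Bmp2 was 0.310 to 1.52 CPM, and its log2 fold changes, from -0.56 (SE 0.33) to 0.40 (SE 0.23), were not at the criterion.

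Bmpr1a, the type I receptor BMPR1A (also called ALK3), changed with choline in formerly iron-deficient males. Its level was 60.4, 56.1, 60.7 and 52.3 CPM in male FID rats and 42.9, 44.9, 48.1 and 44.6 CPM in male FIDch rats. The lowest FID rat was above the highest FIDch rat, with means of 57.4 ± 4.01 and 45.1 ± 2.20 CPM (SD, n = 4 each). Bmpr1a fell by 0.35 on the log2 scale (SE 0.07, adjusted p = 0.0392 by edgeR), and the exact permutation test gave p = 0.029, the smallest that 4 rats against 4 allow. With each library left out in turn the log2 fold change was -0.39 to -0.32 and met the criterion each time, but the adjusted p was over 0.05 in all 8 of these smaller fits. FID replicate 4, the library with the high choroid plexus sum, had the lowest Bmpr1a of the FID rats.

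Male IS rats had 39.8, 54.2, 52.5 and 44.6 CPM of Bmpr1a, a range that reached from below the FIDch rats into the FID rats. Against IS, Bmpr1a rose in FID at the criterion (log2 fold change 0.26, SE 0.10, adjusted p = 0.786 by edgeR), a call that was lost without IS replicates 1 or 4 or FID replicates 1 or 3. Female rats did not show these differences at the criterion. They had 46.5, 46.8, 48.0 and 46.7 CPM in FID, the group of narrowest spread, and 51.7, 54.1, 50.8 and 44.0 CPM in FIDch, with a log2 fold change of 0.09 (SE 0.06). The female minus male difference in FIDch against FID was 0.42 on the log2 scale (SE 0.10, adjusted p = 0.0250 by edgeR), with a range of 0.39 to 0.48 when each library was left out. The adjusted p exceeded 0.05 without male FIDch replicates 1 or 4 or female FIDch replicate 2, and over all alternatives lay between 0.00312 and 0.0654. In FID against IS it was -0.30 (SE 0.11, adjusted p = 0.525 by the same test), and this call was lost without male IS replicates 1 or 4 or male FID replicates 1 or 3.

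Bmpr2, the type II receptor, varied more among the male IS rats than between diets. Male IS rats had 47.5, 93.6, 120 and 97.1 CPM, replicate 1 being the lowest of all male libraries, and the other 12 male rats lay between 82.1 and 132 CPM. Female rats had 69.5 to 117 CPM, the lowest in FIDch replicate 4. No comparison of Bmpr2 met the criterion, and its log2 fold changes lay between -0.23 (SE 0.12, female FIDch against FID) and 0.34 (SE 0.22, male FID against IS).

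Smad1, the receptor-activated transducer, had a narrow range in both sexes. It spanned 18.6 to 26.5 CPM in males and 20.8 to 28.3 CPM in females, and its 8 log2 fold changes, from -0.12 to 0.16, were not called. The largest was male FIDch against FID, 0.16 (SE 0.10, adjusted p = 0.398 by edgeR). Nog, the antagonist noggin, was at 5.15 to 8.44 CPM in males and 3.44 to 6.49 CPM in females. Its 3 female log2 fold changes against IS were 0.28 (SE 0.18, ISch), 0.33 (SE 0.16, FID) and 0.31 (SE 0.15, FIDch), with adjusted p of 0.476, 0.484 and 0.429 by edgeR, and none was called. These 3 comparisons share the 4 IS rats, whose levels were 3.44 to 4.93 CPM.

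Id3, an inhibitor of basic helix-loop-helix factors and a direct target of BMP receptor signalling, was higher in both choline groups of the females. Its level was 25.7, 24.1, 26.5 and 26.2 CPM in IS and 36.2, 33.8, 31.6 and 37.3 CPM in ISch. Formerly iron-deficient females had 24.3, 28.1, 30.5 and 27.3 CPM without choline and 35.6, 33.9, 33.9 and 44.3 CPM with it. Every female rat with prenatal choline was above every female rat without it. Id3 rose in ISch against IS by a log2 fold change of 0.44 (SE 0.06, adjusted p = 0.00896 by edgeR), and its adjusted p stayed under 0.05 with each library left out. Id3 also rose in FIDch against IS (0.53, SE 0.09, adjusted p = 0.0240) and, at the criterion, in FIDch against FID (0.42, SE 0.10, adjusted p = 0.0525 by edgeR). The FIDch against IS adjusted p was over 0.05 in 5 of 8 fits that left out a library, those without any 1 of the IS rats or FIDch replicate 1. FID against IS gave 0.10 (SE 0.07), and the interaction of choline with early iron was -0.02 (SE 0.12) and not called.

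Male Id3 values did not follow this order. The IS rats had 28.9, 24.7, 27.5 and 24.8 CPM, the ISch rats 24.6, 22.8, 23.5 and 23.0 CPM, the FID rats 25.6, 27.9, 30.2 and 20.1 CPM and the FIDch rats 19.8, 24.0, 26.2 and 17.2 CPM. The 4 ISch rats lay just below the 4 IS rats (log2 fold change -0.18, SE 0.09), and FIDch overlapped IS (-0.28, SE 0.13), both described only. FIDch against FID was -0.27 (SE 0.14) and was not called. The female minus male difference in FIDch against FID was 0.67 on the log2 scale (SE 0.19, adjusted p = 0.0602 by edgeR).

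**Figure D2:**
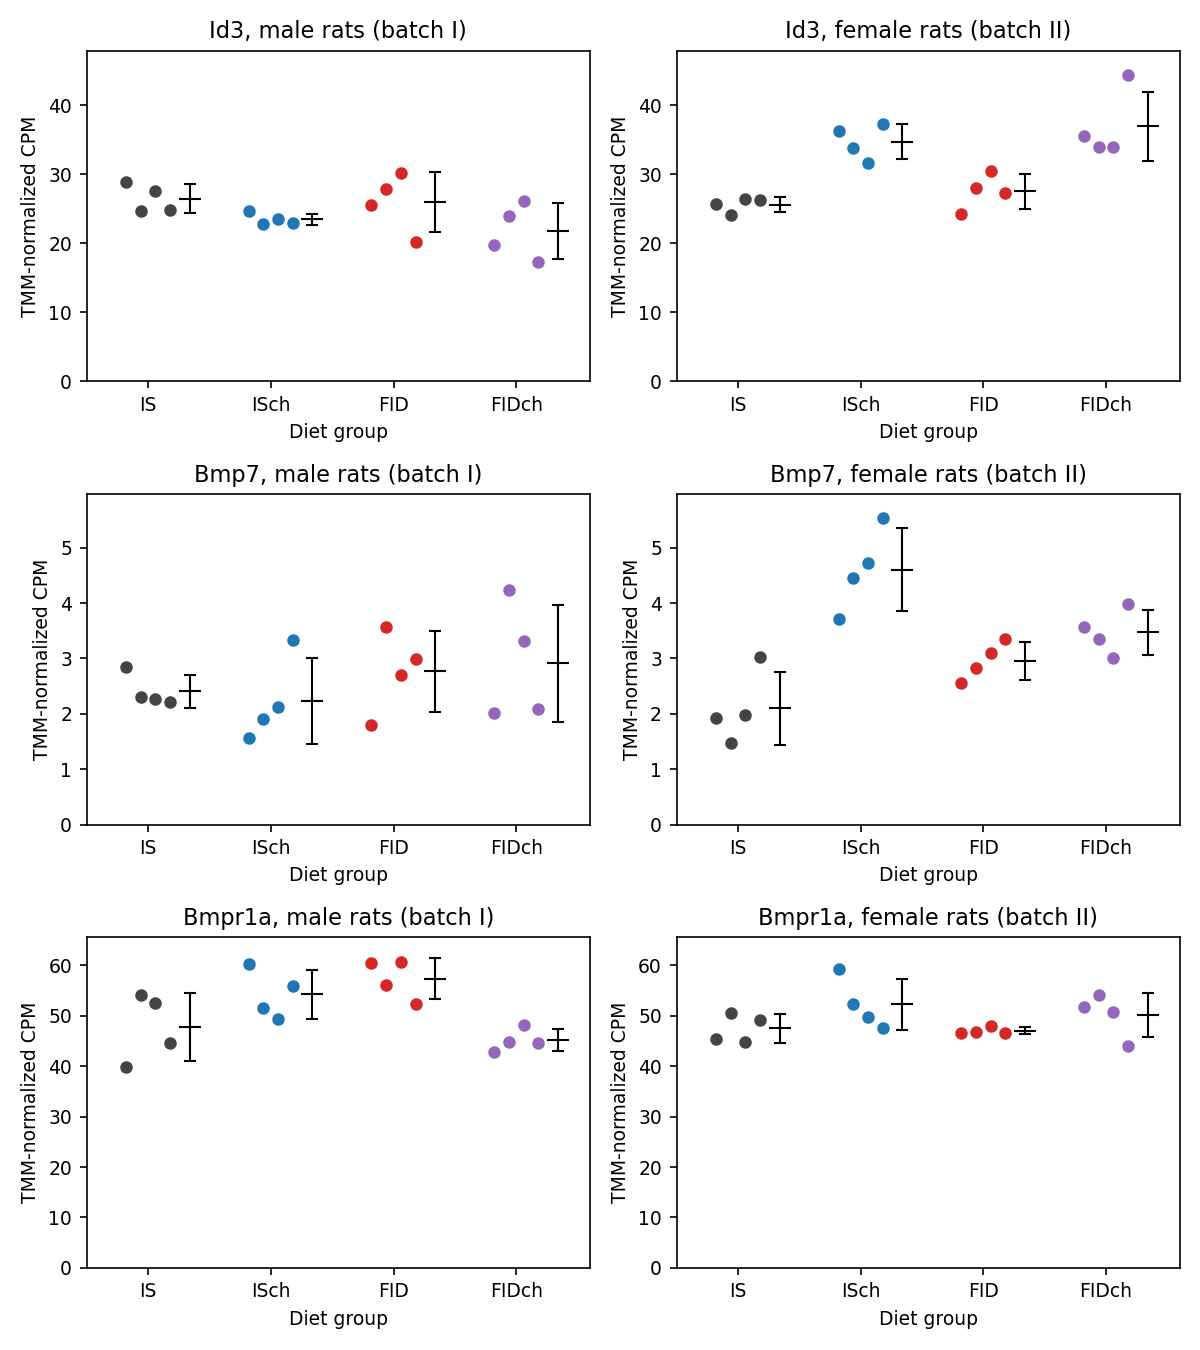
TMM-normalized CPM of Id3, Bmp7 and Bmpr1a in each library (points, replicates 1 to 4 from left to right) by diet group, with the group mean and SD (black), males at left and females at right. Female Id3 is 31.6 to 44.3 CPM in the 8 rats with prenatal choline and 24.1 to 30.5 CPM in the 8 without, and male Bmpr1a is 52.3 to 60.7 CPM in FID and 42.9 to 48.1 CPM in FIDch.

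Dentate gyrus markers divided the females by choline as Id3 did, and microglia markers divided them the other way. The sum of the 5 markers was 317 to 363 CPM in ISch and 289 to 329 CPM in FIDch, against 225 to 255 CPM in IS and 234 to 254 CPM in FID. All 4 of those tested (Prox1, C1ql2, Dsp and Stxbp6) met the criterion as higher in ISch against IS and in FIDch against IS. In FIDch against FID 3 of 4 did. In FID against IS 0 of 4 did. Dsp, which encodes desmoplakin, was at 1.37 to 2.22 CPM in the female rats without choline and 10.04 to 18.2 CPM in those with it, and the fifth marker, Tdo2, was at or near 0. The sum of the microglia markers was lower with choline, at 181 to 206.6 CPM in ISch and 190 to 197 CPM in FIDch. Without choline it was 213 to 223 CPM in IS and 206.8 to 226 CPM in FID. The part of dentate tissue or of microglia in the Id3 and Bmp7 values was not tested. In males the sum was 217 to 277 CPM over all groups.

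**Figure D3:**
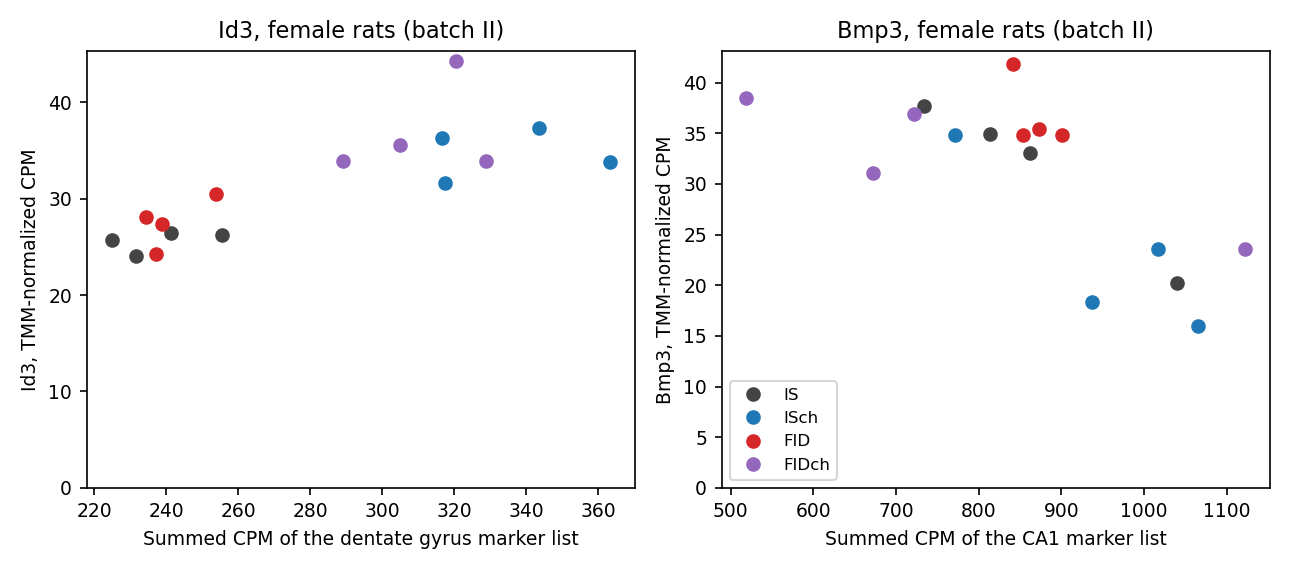
Each point is a female library, coloured by diet group. At left, Id3 (CPM) is plotted against the summed CPM of the dentate gyrus markers, where the 8 choline rats lie at 289 to 363 CPM and the other 8 at 225 to 255 CPM. At right, Bmp3 (CPM) is plotted against the summed CPM of the CA1 markers, where the 5 libraries at 937 to 1122 CPM have 15.9 to 23.6 CPM of Bmp3.

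As a group the genes were called at rates to be read against all genes tested. The 2 contrasts on which members were chosen are listed as a description, and nothing is read from them: 1 of 9 members passed the limits in male ISch against IS (Bmp3, higher), where 8.06% of 13956 genes did, and 2 of 9 in male FIDch against IS (Bmp4 and Id3, lower), where 6.12% of 13693 genes did. In male FID against IS 2 of 9 members rose (Bmp3 and Bmpr1a), against 4.62% of all genes at the criterion, and 0 of 9 had an adjusted p under 0.05 in edgeR's fit or in DESeq2's, as did 0% of all genes in edgeR's. The IS rats there are those of the contrast that chose Bmp3, so this count is not independent of the selection. In male FIDch against FID 2 of 9 fell (Bmp3 and Bmpr1a), against 13.0% of all genes, and 1 of 9 had an adjusted p under 0.05, against 1.28%.

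In females all 10 genes were tested. In ISch against IS 2 rose (Bmp7 and Id3), both also with an adjusted p under 0.05, where 10.3% of all genes met the criterion and 2.54% the adjusted limit. In FID against IS 1 rose (Bmp7), where 6.47% met the criterion, and 0 of 10 had an adjusted p under 0.05 in edgeR's fit or in DESeq2's, where 0.191% of all genes did in edgeR's. In FIDch against IS 2 rose (Bmp7 and Id3) and 1 of them, Id3, had an adjusted p under 0.05, beside 8.98% and 0.907% of all genes. In FIDch against FID 1 rose (Id3), where 12.7% met the criterion, and 0 of 10 had an adjusted p under 0.05 in edgeR's fit, where 2.28% of all genes did, against 1 of 10 (Id3) in DESeq2's. Between the sexes, 1 of 10 differed in FID against IS (Bmpr1a), beside 7.64% of all genes at the criterion and 0.0396% by adjusted p. In FIDch against FID 2 of 10 differed (Bmpr1a and Id3), 1 of them by adjusted p, beside 17.7% and 2.88% of all genes. The median log2 fold change of the members ran from -0.19 (male FIDch against FID) to 0.16 (female ISch against IS), with that of all genes between -0.01 and 0.01 in the 8 comparisons.

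**Figure D4:**
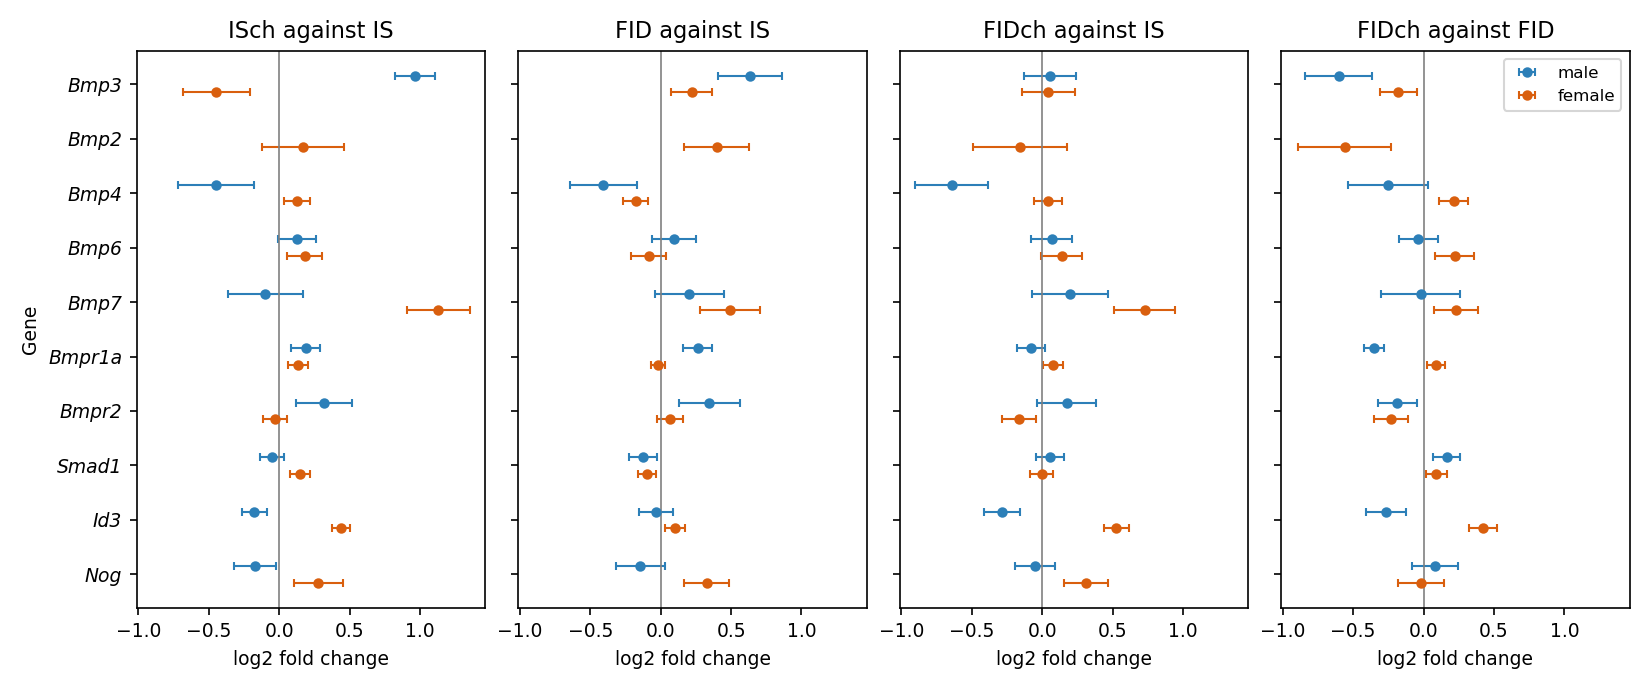
Log2 fold change (point) and standard error (bar) of the 10 genes in the 4 diet comparisons, males in blue and females in orange. Bmp2 has no male value because it did not pass the filter, Bmp3 is at 0.96 in male and -0.45 in female ISch against IS, and Bmp7 at 1.13 and Id3 at 0.44 are the called genes of female ISch against IS.

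The wider pathway was followed with a list of 49 further ligands, receptors, SMADs, inhibitors and targets, of which 27 to 33 were tested in each comparison. In the males 1 of 30 was called in ISch against IS, beside 8.06% of all genes, the type II receptor Acvr2b, which was higher (log2 fold change 0.59, SE 0.23). None of 29 was called in FID against IS, beside 4.62% of all genes, and 0 had an unadjusted p under 0.05 in edgeR's fit. In FIDch against IS 1 of 27 was called, beside 6.12% of all genes, the antagonist chordin, Chrd, which was higher (0.25, SE 0.10). In FIDch against FID 4 of 29 were called (13.8%, beside 13.0% of all genes), of which 2 rose, the target Id1 (0.39, SE 0.16) and the coreceptor Eng (0.23, SE 0.09), and 2 fell, the receptor Acvr2a (-0.28, SE 0.08) and Id4 (-0.28, SE 0.11). None of these had an adjusted p under 0.05 in edgeR's fit.

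In female ISch against IS 5 of 32 rose and 0 fell at the criterion (15.6%, beside 10.3% of all genes). Among them were the antagonist Chrdl1 (0.53, SE 0.08) and the targets Msx2 (0.92, SE 0.35), Msx1 (0.44, SE 0.12) and Id4 (0.28, SE 0.07). Chrdl1, at 13.1 ± 0.846 CPM in ISch and 9.09 ± 0.475 CPM in IS (SD, n = 4 each), had an adjusted p of 0.0124 by edgeR, and the type I receptor Acvr1 an adjusted p of 0.0405 at a log2 fold change of 0.19 (SE 0.04). In FIDch against IS 6 of 33 rose and 2 fell (24.2%, beside 8.98% of all genes), the 4 with the largest log2 fold change being Msx2 (1.12, SE 0.34), Acvr2b (-0.62, SE 0.22), the ligand Gdf10 (0.45, SE 0.16) and Chrdl1 (0.32, SE 0.13). In FID against IS 4 of 33 rose (12.1%, beside 6.47% of all genes), among them Bmper (0.36, SE 0.16), Id1 (0.32, SE 0.12) and Eng (0.26, SE 0.10). In FIDch against FID 3 of 33 rose and 3 fell (18.2%, beside 12.7% of all genes), led by Msx2 (0.80, SE 0.32), Acvr2b (-0.62, SE 0.22), Gdf10 (0.49, SE 0.12) and Bmper (-0.42, SE 0.15). The median log2 fold change of the list lay between -0.04 and 0.08 over the 8 comparisons. Id1, another direct BMP target, was not called in ISch or FIDch against IS in the females and fell in FIDch against FID (-0.29, SE 0.09), where Id3 rose.

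Members were also compared with each other across the rats of a sex, on log2 CPM, in 81 pairs. By Pearson's r 0 pairs passed Benjamini-Hochberg adjustment of the permutation p in either sex, and by Spearman's rho 1 did, Bmp7 with Id3 in females. Its rho was 0.80 (permutation p = 0.00043, adjusted 0.0348), its r was 0.75 (permutation p = 0.0007, adjusted 0.0567), and without the 2 libraries farthest from the median of Bmp7 r was 0.68. On deviations from the diet group means 0 of the 81 pairs passed by either measure.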

How the data were processed

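The 10 genes, the gene lists and the tests were chosen with earlier results of these data known. Reads had been mapped by the authors with HISAT2 and assigned to genes by featureCounts, and the deposited values are raw counts. The submitters' processing notes also name FastQC, Trimmomatic, Subread and the build Rnor_6.0, while the annotation, the handling of strand and of reads that match several genes are not given in the sources used here, so genes that overlap others are uncertain. All 32 columns were matched to samples by their labels, and 0 columns were left without a sample.

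Counts were normalized by TMM and tested in R 4.3.3 with edgeR 4.0.16 (filterByExpr, glmQLFit, glmQLFTest), a separate fit for each pair of groups. Interactions were tested in one fit of 16 libraries. The criterion for a call was that of the study (log2 fold change beyond 0.2 in size, unadjusted p under 0.05), beside Benjamini-Hochberg adjustment over all genes tested. Single genes were also compared by a 2-sided exact permutation test, whose smallest p for 4 rats against 4 is 0.029, and correlations by 100000 permutations. The fits were first tested on simulated data. All 10 members are described, of the wider pathway list the 4 genes with the largest change at the criterion and any with an adjusted p under 0.05, and the 5 genes most like Bmp3. Values of 1 gene that falls under this rule are not reported here. Levels are linear CPM, with a prior count of 1 on the log2 scale. Over 48 replicate pairs the chi-square per gene, where both libraries held 20 counts or more between them, was 2.02 to 25.2, so no library repeated another. Alternatives were RLE size factors, other filters, library size alone, DESeq2 1.42.0, all groups of a sex in one fit, a replicate block, and leaving out each library, with one more (female libraries of high CA1 marker sum) chosen after seeing the data.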

Additional observations from a re-analysis of the deposited data

Results flagged for a closer look

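In 4 of 80 groups of 4 rats, 1 rat lay far from the other 3 by Dixon's ratio, past its limit at 95% for 4 values, about the 1 in 20 that chance flags. These were female FID replicate 1 for Bmp3, high at 41.8 CPM, male IS replicate 1 for Bmp7, high at 2.85 CPM, male ISch replicate 1 for Smad1, low at 21.7 CPM, and female FIDch replicate 4 for Id3, high at 44.3 CPM.

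Differences between groups in the same contrast met the criterion for Bmp7 in the female iron by choline interaction (-0.90 on the log2 scale), and for the female minus male difference of Bmpr1a in FID against IS (-0.30), of Id3 in FIDch against FID (0.67) and of Bmpr1a in FIDch against FID (0.42). In ISch against IS, every ISch rat lay on one side of the IS mean in males and on the other in females for Smad1 (female minus male 0.20) and Id3 (0.61), and in FIDch against IS the same held for Id3 (0.81) and Nog (0.36). These last 4 differences were not tested.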

How the results depend on the processing

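The counts for male ISch and male FIDch against IS describe contrasts on which members were chosen and carry no test. In counts of members at the criterion, leaving out each library in turn gave 1 to 3 in male ISch against IS, 1 to 3 in male FID against IS, 0 to 2 in male FIDch against IS, 1 to 3 in male FIDch against FID, 0 to 2 in female FID against IS, 1 to 2 in female FIDch against FID and 0 to 2 for the sex difference in FID against IS. With the adjusted p in place of the criterion the count was 0 in male FID against IS, 0 in male FIDch against IS, 1 in male FIDch against FID, 0 in female FID against IS, 1 in female FIDch against IS and 0 in female FIDch against FID. Male FIDch against IS had 1 with library size alone, 1 with DESeq2 and 1 with the 4 groups in one fit. Male FIDch against FID had 1 with DESeq2, and female FIDch against FID had 2 with library size alone and 2 with the 4 groups in one fit. Male ISch against IS had 2 without the libraries of another name form, and female FID against IS had 0 without the 5 libraries of high CA1 marker sum, an alternative chosen after seeing the data. The causes were not tested. Bmp3 in FIDch against IS lay between -0.13 and 0.17 in males and between -0.12 and 0.16 in females with each library left out, and changed sign in males without IS replicates 1 or 2 (-0.05 and -0.01) or FIDch replicate 2 (-0.13, which is also the library of another name form, again -0.13), and in females without IS replicate 1 (-0.12) or FIDch replicates 2 or 3 (-0.02 and -0.05).

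Equal replicate numbers did not pair the rats: deviations of same-numbered rats correlated at -0.13 to 0.22 in males and -0.16 to 0.19 in females, over 24 pairs each, with 3 and 2 of them over 0.1. With a replicate block every member at the criterion without it was still at it, and 3 more reached it: Bmp4 in male ISch against IS (2 members in all, described only), Bmpr2 in male FID against IS (3) and Id3 in male FIDch against FID (3). The block moved the adjusted p of edgeR over 0.05 for Bmpr1a in male FIDch against FID (0.130) and in its sex difference (0.0654) and for Id3 in female FIDch against IS (0.0634), and under it for the sex difference of Id3 in FIDch against FID (0.0441). Bmp2 and male Bmp7 rest on low counts, 3 to 34 a library.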
